A study of Mus musculus with 4 samples.

Results

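The genes described here encode ATP-dependent chromatin remodelers and their partner subunits in mouse embryos at the 2-cell stage. They were taken by symbol among the protein-coding genes of GENCODE release M21: every Smarca to Smarce gene, Chd1 to Chd9, Arid1a, Arid1b and Arid2, the Ino80 genes, and Pbrm1, Brd7, Brd9, Actl6a, Baz1a, Baz1b, Baz2a, Bptf, Ep400, Srcap, Ruvbl1, Ruvbl2 and Hells. The rule used no measured value and found 43 genes among the 53715 rows of the count table, and all 43 passed the low-count filter. Zygotes of C57BL/DBA2 background were injected with 20 μM of an siRNA against SPENH0335 (siSPENH0335 embryos) or of a control siRNA (siNC embryos), cultured in KSOM medium and lysed whole at the 2-cell stage. The title of the series places SPENH0335 among enhancer-derived RNAs, and the comparison asks what its knockdown does to the embryo's RNA. Each group had 2 libraries of poly(A) RNA, and the labels do not say that replicates came from separate embryo collections, so the p-values reflect a spread that may be technical only.

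Chromatin remodelers burn ATP to slide, evict or exchange nucleosomes, and so set which stretches of DNA other proteins can reach. SWI/SNF complexes, built on Smarca4 (BRG1) or Smarca2 (BRM), mostly open chromatin, ISWI complexes space nucleosomes evenly, CHD proteins read histone marks or belong to the NuRD corepressor, and INO80 and SRCAP handle the histone variant H2A.Z. In the mouse, Smarca4 made by the oocyte is known to be needed for the embryo to activate its genome and pass the 2-cell stage. A 2-cell embryo still holds RNA from the egg beside its own first transcripts, and a count of poly(A) RNA does not separate them. In bulk samples like these, fewer cells of a type and less RNA per cell cannot be told apart.

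The libraries held 78865491 to 99011109 counts. The 7 markers of the 2-cell embryo summed to 828 to 902 CPM (counts relative to library size, after edgeR's TMM scaling) in the siSPENH0335 libraries and 659 to 710 CPM in the siNC libraries, and the 7 oocyte-inherited markers to 4901 to 5154 CPM and 5376 to 5394 CPM in the same order. Of the 2-cell markers, Zscan4c, Zscan4d, Zscan4f and Zfp352 lay higher in siSPENH0335 without overlap. Tdpoz4 lay lower, and Usp17la and Duxf3 overlapped between groups. The 8 cumulus and granulosa markers summed to 44.2 to 62.7 CPM over the 4 libraries, with Inha at 0 counts. Most of that sum was Cyp19a1, at 36.8 to 55.7 CPM. At low levels, Has2 and Foxl2 lay lower in both siSPENH0335 libraries than in both siNC libraries, and Fshr higher. The 4 sperm markers summed to 2.34 to 3.77 CPM, and the 7 blood, oviduct and stroma markers to 14.7 to 50.6 CPM, with Hbb-bs at 0 counts. The part of these marker differences in the results was not tested. No row of the table is named for SPENH0335, so the size of its knockdown was not measured here.

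All 43 remodeler genes had RNA in every library, at levels that spanned over 2 orders of magnitude. To compare genes, the level was divided by the merged length of a gene's exons, giving CPM per kb. Brd7, a bromodomain subunit of the PBAF form of SWI/SNF, stood first with 32.7 and 43.4 CPM per kb in the siSPENH0335 libraries and 32.7 and 31.5 CPM per kb in the siNC libraries. Next came Smarca5 (mean of the 4 libraries 33.3 ± 5.18 CPM per kb, SD), the ATPase of most ISWI complexes, and Hells (31.9 ± 4.53), an ATPase needed for DNA methylation of repeats. Bptf (28.9 ± 2.84), the largest subunit of the ISWI complex NURF, Smarca2 (27.6 ± 2.53), Arid1a (25.7 ± 4.52), the DNA-binding subunit that defines the canonical BAF form of SWI/SNF, and Actl6a (24.8 ± 3.18), an actin-like subunit of SWI/SNF and INO80, completed a leading group of 7 genes. Within this group the ranges of neighbouring genes overlapped, and its lowest library value, 21.5 CPM per kb for Actl6a, lay above the highest of the next gene, Arid2, at 20.9 CPM per kb.

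At the other end, 8 genes averaged under 1 CPM per kb. They were Ino80b, Chd2, Srcap, Chd3, Smarcd1, Chd5, Smarca1 and Smarcd3. Srcap shares 9738 of its 15783 exon bases, and Chd2 2628 of its 14300, with another gene model on the same strand. Their levels therefore depend on how shared reads were divided, which is not known. Smarca1, the other ISWI ATPase, had only 37 and 48 counts in the siSPENH0335 libraries and 43 and 60 counts in the siNC libraries. Smarcd3, a SWI/SNF subunit known from heart and brain, had 18 and 12 counts in the siSPENH0335 libraries, against 89 and 27 counts in the siNC libraries. Over the whole order, the library ranges of neighbours failed to overlap in only 6 of 42 places, below Actl6a, Chd9, Ino80, Smarcc1, Ino80e and Chd5. Overlapping ranges do not show that neighbours were at equal levels, since the genes were measured in the same libraries. Bptf, for example, exceeded its neighbour Smarca2 in each library.

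**Figure D1:**
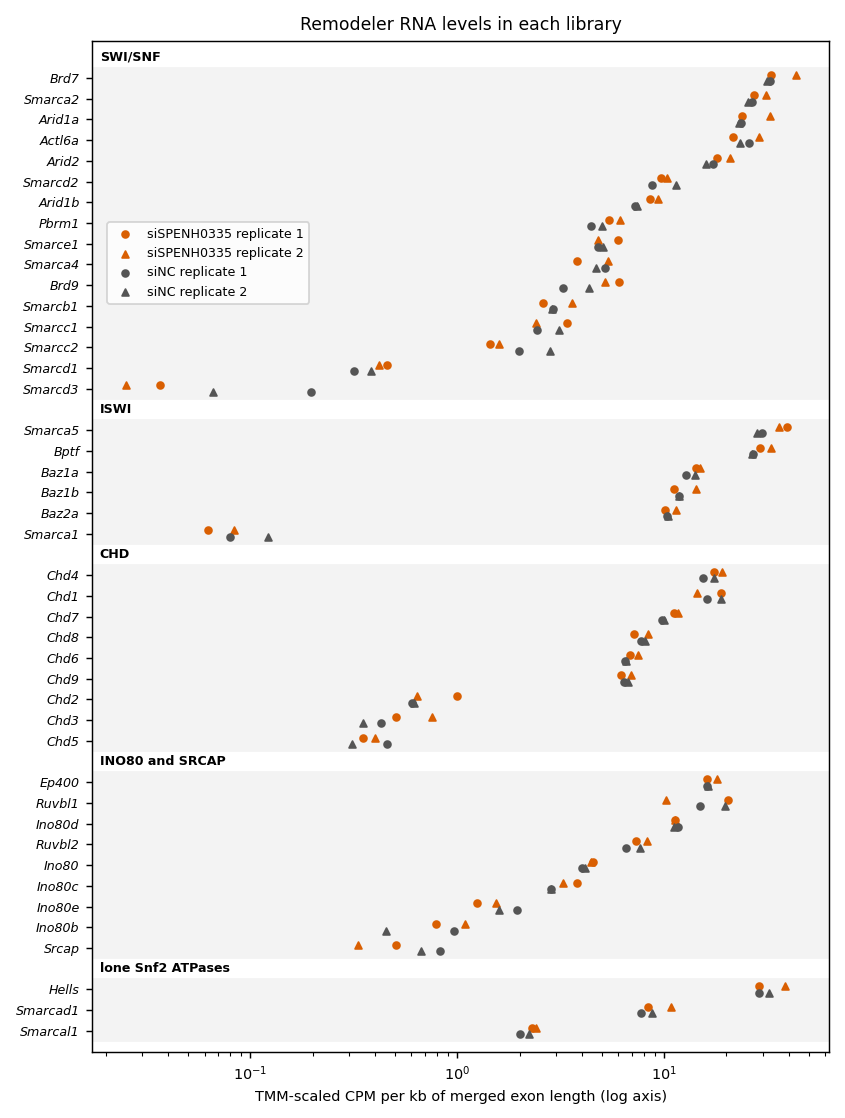
Level of each remodeler gene in each library, as TMM-scaled CPM per kb of merged exon length on a log axis, with genes grouped by family and ordered by mean level. Points are single libraries (orange, siSPENH0335; grey, siNC). Brd7, Smarca5, Hells, Bptf, Smarca2, Arid1a and Actl6a lead, and Smarca1 and Smarcd3 lie lowest.

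Closely related genes were far from equally represented, and the choice of paralog was the same in all 4 libraries. Smarca2 exceeded Smarca4, the alternative catalytic subunit of SWI/SNF, by 7.14 and 5.83 times per kb of exon in the siSPENH0335 libraries. In the siNC libraries it did so by 5.10 and 5.43 times. Smarca5 exceeded Smarca1 by 628 and 430 times in the siSPENH0335 libraries and by 377 and 231 times in the siNC libraries, with 37 to 60 counts of Smarca1 in a library. Chd4, the main NuRD ATPase, exceeded its paralog Chd3 by 34.6 and 25.1 times in the siSPENH0335 libraries and by 35.8 and 50.0 times in the siNC libraries. Chd5, the third member of that group and known from neurons and testis, averaged 0.38 CPM per kb, against 17.3 for Chd4. Smarcd2 exceeded Smarcd1 by 21.1 and 24.6 times in the siSPENH0335 libraries and by 27.5 and 29.7 times in the siNC libraries. Chd1 exceeded Chd2 by 18.9 and 22.5 times in the siSPENH0335 libraries and by 26.6 and 30.4 times in the siNC libraries. This ratio depends on how reads were divided between Chd2 and 1810026B05Rik, which shares 2628 of its exon bases on the same strand. Arid1a exceeded Arid1b by 2.79 to 3.48 times over the 4 libraries. Smarcc1, a scaffold of SWI/SNF, and its paralog Smarcc2 were closest, at a ratio of 2.34 and 1.51 in the siSPENH0335 libraries and 1.22 and 1.10 in the siNC libraries. The ratio of Arid1a to Arid1b overlapped between groups and the other 6 of the 7 did not. Of these 6, siSPENH0335 was higher in 3 (Smarca2 over Smarca4, Smarca5 over Smarca1, Smarcc1 over Smarcc2) and lower in 3. Among all single genes tested, 15.6% lay higher and 17.1% lower without overlap. No such share was computed for other pairs of genes, so the count of ratios has no background of its own. With 2 libraries a group an exact permutation test cannot give a two-sided p under 0.333, and none was run.

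Ratios between genes depend on the length they are divided by. With the longest protein-coding transcript in place of the merged exons, the mean ratio was 13.8 in place of 5.83 for Smarca2 over Smarca4, and it was 17.0 in place of 24.2 for Chd1 over Chd2, while no pair changed order. Smarca2 then stood first of the 43 genes and Brd7 second.

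**Figure D2:**
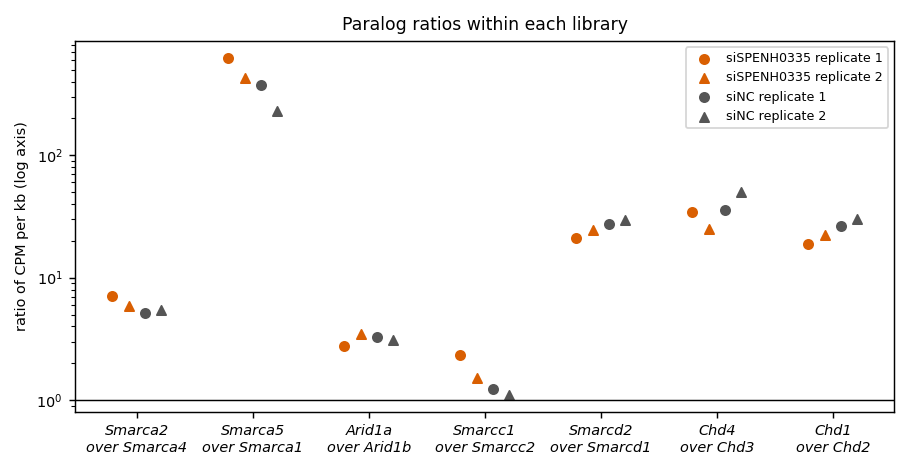
Ratio of the level of one paralog to that of another within each library, from CPM per kb on a log axis (orange, siSPENH0335; grey, siNC). The line marks equal levels, and every ratio in every library lies above it, from 1.10 for Smarcc1 over Smarcc2 to 628 for Smarca5 over Smarca1.

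The promoters of the SWI/SNF and ISWI ATPases are shown because each pair encodes paralogous enzymes at unequal RNA levels. The sequences are RefSeq's for GRCm38.p6, the 250 bases before the annotated start, on the strand of the gene, 5′ to 3′, with CpG dinucleotides in capitals: Smarca2 at chr19:26604910-26605159 (+ strand), Smarca4 at chr9:21615919-21616168 (+ strand), Smarca5 at chr8:80739460-80739709 (- strand) and Smarca1 at chrX:47892614-47892863 (- strand).
Smarca2: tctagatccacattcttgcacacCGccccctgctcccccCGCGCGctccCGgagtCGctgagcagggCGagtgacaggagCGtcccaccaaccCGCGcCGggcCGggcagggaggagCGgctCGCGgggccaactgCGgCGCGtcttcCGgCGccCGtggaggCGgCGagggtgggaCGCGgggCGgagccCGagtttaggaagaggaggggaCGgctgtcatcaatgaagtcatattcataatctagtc
Smarca4: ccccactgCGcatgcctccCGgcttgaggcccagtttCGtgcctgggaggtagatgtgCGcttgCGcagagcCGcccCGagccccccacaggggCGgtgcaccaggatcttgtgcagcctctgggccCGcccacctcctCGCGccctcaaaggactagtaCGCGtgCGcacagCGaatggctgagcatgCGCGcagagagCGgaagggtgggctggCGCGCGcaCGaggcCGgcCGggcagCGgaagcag
Smarca5: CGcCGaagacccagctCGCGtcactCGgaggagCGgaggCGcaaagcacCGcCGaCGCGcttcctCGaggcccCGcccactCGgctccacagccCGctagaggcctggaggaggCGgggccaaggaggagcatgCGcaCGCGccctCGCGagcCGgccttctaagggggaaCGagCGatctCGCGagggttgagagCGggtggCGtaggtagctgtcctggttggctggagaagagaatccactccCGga
Smarca1: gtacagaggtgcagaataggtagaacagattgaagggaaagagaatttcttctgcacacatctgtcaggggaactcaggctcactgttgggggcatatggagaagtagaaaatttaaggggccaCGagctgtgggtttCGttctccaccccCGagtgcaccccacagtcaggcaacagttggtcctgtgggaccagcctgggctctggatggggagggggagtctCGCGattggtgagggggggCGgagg
The window of Smarca1, the least represented of these ATPases, held 6 CpG, and those of Smarca2, Smarca4 and Smarca5 held 28, 25 and 29. RefSeq's starts can differ from those of GENCODE M21. The GENCODE gene of Smarca1 begins at 47892974 on the - strand, so its window lies inside that gene. The windows of Smarcc1 and Smarcd2, counted below, also lie inside their GENCODE genes. Whether CpG content bears on RNA level was not tested. RefSeq's table held 41 promoter windows for 34 of the 43 genes. In 34 of the 41 windows (82.9%) the CpG count was at least 0.6 of that expected from the base composition, against 34.0% of the 32851 windows of all genes, which include many noncoding genes. The letters GGGCGG, searched on both strands and partly overlapping the counted CpG, were in 34 windows (82.9%), against 32.7% of all, and TATAAA, on both strands and free of CpG, was in 2 (4.88%), against 12.4% of all. These matches describe the letters and not the binding of any factor.

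No remodeler gene changed between siSPENH0335 and siNC embryos by the test used, and over all 25565 genes tested the share called was 0% (edgeR quasi-likelihood test, adjusted p under 0.05, smallest adjusted p among the remodelers 0.9999). DESeq2 called none of the 43 either, against 0.133% of all genes. At an unadjusted p under 0.05, edgeR listed 2 remodelers with a positive fold change, Smarca5 and Brd9, against a background of 1.56% of all genes, and 1 with a negative one, Srcap, against 2.29%. Together these 3 genes are 6.98% of the remodelers, and 3.85% of all genes tested had such a p in edgeR in either direction.

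Within the spread between replicates, which may be technical only, the values left little room for large changes in most of these genes. For 33 of the 43 the 95% interval of the log2 fold change lay inside -1 to 1, that is within 2-fold either way, against 31.8% of all genes tested. Where the mean reached 10 CPM it was 31 of 35 remodelers (88.6%), close to the 87.8% of all genes at that level. The 10 genes with wider intervals were Smarcd3, Smarca1, Ino80b, Smarcd1, Chd3, Chd2, Ruvbl1, Srcap, Smarcc2 and Brd9.

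The fold changes lay more often above 0 than below, with 31 of 43 (72.1%) above 0 and a median log2 fold change of 0.13, against 49.7% above 0 and a median of -0.0025 over all genes tested. Among protein-coding genes of at least 10 CPM, 55.0% lay above 0, with a median of 0.02. Both siSPENH0335 libraries lay above both siNC libraries in 19 genes (44.2%, background 15.6%) and below both in 4 genes (9.30%, background 17.1%). Among protein-coding genes of at least 10 CPM those shares were 19.0% and 13.5%. These counts describe the list and carry no test, since the genes of a library are not independent. Without siSPENH0335 replicate 2 the median was 0.07 with 26 genes above 0, and without siSPENH0335 replicate 1 it was 0.20 with 33 genes above 0. At an unadjusted p under 0.05, edgeR then listed 3 remodelers above 0 and 0 below without replicate 2 (backgrounds 3.26% and 4.77%), and 12 above and 2 below without replicate 1 (backgrounds 5.66% and 7.44%).

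**Figure D3:**
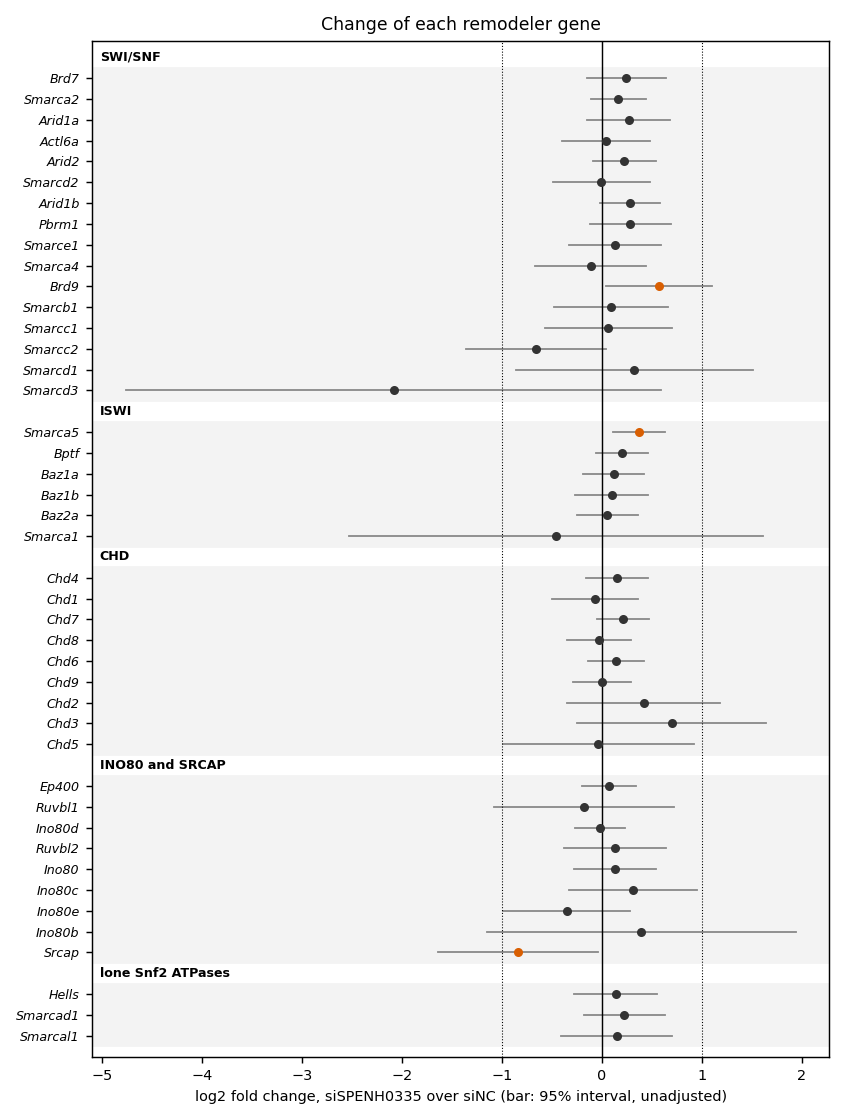
Log2 fold change of each remodeler gene, siSPENH0335 over siNC, with its unadjusted 95% interval from the edgeR fit, grouped by family. Dotted lines mark 2-fold either way. Orange points (Brd9, Smarca5 and Srcap) have an interval that leaves out 0, and none of the 43 passed adjustment over all genes.

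The excess above 0 was uneven between the knockdown libraries. siSPENH0335 replicate 2 lay above both siNC libraries in 31 of the 43 genes (background 35.0%), and siSPENH0335 replicate 1 did so in 23 (background 35.5%). They lay below both in 7 genes (background 38.0%) and 14 genes (background 35.4%) in the same order. Of the 7454 protein-coding genes of at least 10 CPM, replicate 2 lay above both in 3656 and replicate 1 in 2563. Below both lay 2313 and 3063 of them in the same order, so the unevenness was not particular to the remodelers. Of the 35 remodelers at that level, 27 and 20 lay above both, and 5 and 11 below. The median log2 ratio of the remodelers to the siNC mean was 0.06 in siSPENH0335 replicate 1 and 0.20 in siSPENH0335 replicate 2, against -0.02 and 0.07 for all protein-coding genes of at least 10 CPM. Between the siSPENH0335 replicates the median absolute log2 difference of the remodelers was 0.22, and between the siNC replicates it was 0.15. For the remodelers of at least 10 CPM these differences were 0.20 and 0.08, and for all genes at that level 0.26 and 0.13. Replicate 2 also had the lowest TMM factor, 0.949, against 1.01 to 1.02 in the other libraries, and with library totals in place of TMM the median was 0.09 with 29 genes above 0.

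**Figure D4:**
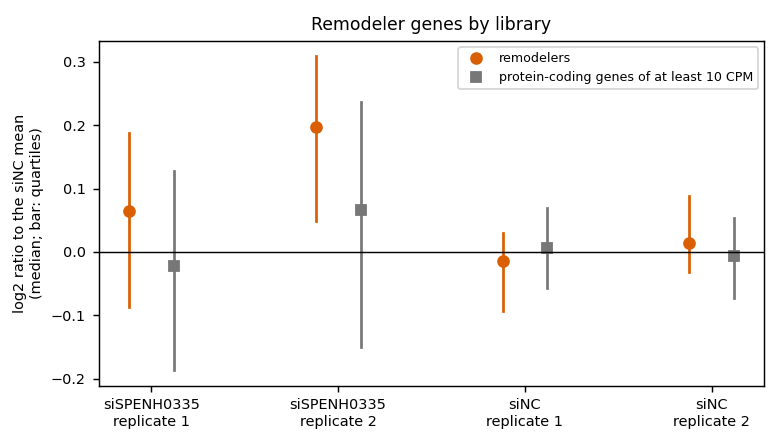
Median log2 ratio of each library to the siNC mean, with bars from the lower to the upper quartile, for the remodelers (orange) and for all protein-coding genes of at least 10 CPM (grey). The remodeler median is 0.20 in siSPENH0335 replicate 2 and 0.06 in replicate 1.

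Length and level moved with the fold change across the transcriptome. Among protein-coding genes of at least 10 CPM, the quintile with the longest merged exons had a median log2 fold change of 0.06 and the quintile with the shortest -0.03, and the quintile with the highest level had 0.06 and that with the lowest -0.03. In the longest quintile 63.5% of genes lay above 0, and in that of the highest level 68.1%. Remodeler genes are long, with a median of 7930 exon bases, and 17 of the 35 at that level fell in the longest quintile, where their median was 0.17, and 13 fell in the quintile of the highest level, where it was also 0.17. The part of length and level in the shift of the list was not tested.

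SWI/SNF was represented by 16 genes, 12 of them with a fold change above 0 and 8 with both siSPENH0335 libraries above both siNC libraries, against 49.7% and 15.6% of all genes tested. The summed level was 1461 and 1751 CPM in the siSPENH0335 libraries, against 1411 and 1390 CPM in the siNC libraries. Of the ATPases, Smarca2 was at 388 and 445 CPM in siSPENH0335 embryos, against 379 and 363 CPM in siNC embryos, a log2 fold change of 0.17 (SE 0.11) that was 0.07 without siSPENH0335 replicate 2 and 0.27 without siSPENH0335 replicate 1. Smarca4 was at 24.6 and 34.7 CPM, against 33.7 and 30.3 CPM in siNC embryos (log2 fold change -0.11, SE 0.22), and its groups overlapped.

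The subunits that tell the SWI/SNF forms apart gave the following values. Brd9, the bromodomain subunit of the noncanonical form (chromosome 13, 73937811 to 73960895, GRCm38), was at 42.2 and 35.9 CPM in siSPENH0335 embryos, against 22.5 and 30.0 CPM in siNC embryos. Its log2 fold change of 0.57 (SE 0.21, 95% interval 0.04 to 1.11) had an unadjusted p of 0.039 in edgeR and an adjusted p of 0.9999. Without siNC replicate 1 it was 0.38. The groups did not overlap, and the siNC replicates differed from each other by more than the gap between the groups.
Arid1b, the alternative to Arid1a in canonical BAF, was at 107 and 117 CPM in siSPENH0335 embryos, against 91.2 and 93.4 CPM in siNC embryos (log2 fold change 0.28, SE 0.12). Arid1a was at 272 and 373 CPM, against 271 and 264 CPM in siNC embryos, so siSPENH0335 replicate 2 stood apart and replicate 1 lay just above the siNC libraries (log2 fold change 0.27, and 0.03 without replicate 2). The PBAF subunits gave log2 fold changes of 0.25 for Brd7, 0.23 for Arid2 and 0.29 for Pbrm1, and in each the groups did not overlap. For Brd7 the margin was 172 against 171 CPM, and without siSPENH0335 replicate 2 the log2 fold changes were 0.04 for Brd7, 0.12 for Arid2 and 0.20 for Pbrm1.

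Smarcc2 went the other way, at 8.01 and 8.85 CPM in siSPENH0335 embryos, against 11.0 and 15.6 CPM in siNC embryos (log2 fold change -0.66, SE 0.28, 95% interval -1.36 to 0.04, and -0.39 without siNC replicate 2). Its paralog Smarcc1 was at 26.5 and 18.9 CPM, against 19.0 and 24.3 CPM in siNC embryos, with overlapping groups. Smarcd3 had a log2 fold change of -2.08 with an SE of 1.07, and without siNC replicate 1 it was -1.09. Chpf2, an opposite-strand gene with 0 to 45 counts a library, shares 2466 of the 5120 exon bases of Smarcd3. The core subunits Smarcb1 and Smarce1 and the accessory subunit Smarcd2 had overlapping groups and log2 fold changes of 0.09, 0.13 and -0.0043.

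The ISWI genes summed to 1078 and 1166 CPM in the siSPENH0335 libraries, against 977 and 971 CPM in the siNC libraries, and 5 of the 6 had a fold change above 0. Smarca5 (chromosome 8, 80698507 to 80739497) had the smallest p of all remodelers. It was at 306 and 279 CPM in siSPENH0335 embryos, against 232 and 219 CPM in siNC embryos, a log2 fold change of 0.37 (SE 0.11, 95% interval 0.11 to 0.64, unadjusted p 0.014 in edgeR, adjusted p 0.9999). Both siSPENH0335 libraries exceeded both siNC libraries, and the gap was wider than the difference between replicates of either group. A transcribed processed pseudogene, Smarca5-ps, took 1663 and 943 counts in the siSPENH0335 libraries, against 1038 and 596 counts in the siNC libraries, and summing it with Smarca5 gave a log2 fold change of 0.38.

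The partners of Smarca5 each direct it to a different task. Bptf was at 407 and 463 CPM in siSPENH0335 embryos, against 381 and 376 CPM in siNC embryos (log2 fold change 0.20, SE 0.10, and 0.11 without siSPENH0335 replicate 2). Baz1a, the ACF1 subunit of nucleosome-spacing complexes, was at 102 and 106 CPM, against 91.2 and 101 CPM in siNC embryos. Both had groups that did not overlap, by a narrow margin in Baz1a. Baz1b, of the WICH complex, and Baz2a, of the nucleolar complex NoRC, overlapped between groups, with log2 fold changes of 0.10 and 0.06. Smarca1, at 0.38 and 0.51 CPM in siSPENH0335 embryos, against 0.48 and 0.75 CPM in siNC embryos, had too few counts to limit its change, with a 95% interval of -2.53 to 1.61.

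Of the 9 CHD genes, 6 had a fold change above 0 and none was listed at an unadjusted p under 0.05. Chd7, a remodeler of enhancers mutated in CHARGE syndrome, was at 154 and 161 CPM in siSPENH0335 embryos, against 134 and 137 CPM in siNC embryos (log2 fold change 0.21, SE 0.11), and the groups stood apart by more than either pair of replicates. Chd1, which binds trimethylated lysine of histone H3 at active genes, was at 165 and 125 CPM, against 140 and 164 CPM in siNC embryos, with overlapping groups. Chd4 was at 140.2 and 153 CPM, against 123 and 140.0 CPM in siNC embryos.
Chd6 was at 131 and 143 CPM in siSPENH0335 embryos, against 123 and 125 CPM in siNC embryos. Chd8, a repressor of Wnt targets that is tied to autism, was at 118 and 138 CPM, against 127 and 134 CPM in siNC embryos. Chd9 was at 142 and 161 CPM, against 148 and 155 CPM in siNC embryos. Chd8 and Chd9 overlapped between groups, with 95% intervals that reached no further than 0.35 from 0 on the log2 scale.
The 3 low genes were less certain. Chd2 was at 14.3 and 9.14 CPM in siSPENH0335 embryos, against 8.64 and 8.85 CPM in siNC embryos, with siSPENH0335 replicate 1 standing apart (log2 fold change 0.42, and 0.06 without that library), and 2628 of its exon bases are shared with the noncoding gene 1810026B05Rik on the same strand. Chd3 was at 4.27 and 6.40 CPM, against 3.62 and 2.95 CPM in siNC embryos (log2 fold change 0.70, SE 0.38, and 0.38 without siSPENH0335 replicate 2). Chd5 was at 3.37 and 3.82 CPM, against 4.40 and 2.96 CPM in siNC embryos.

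INO80, SRCAP and EP400 and their subunits, which place and remove H2A.Z, summed to 544 and 553 CPM in the siSPENH0335 libraries, against 543 and 546 CPM in the siNC libraries. Ino80 was at 30.7 and 30.2 CPM in siSPENH0335 embryos, against 27.3 and 28.3 CPM in siNC embryos (log2 fold change 0.13, SE 0.16). Ep400, the ATPase of the TIP60 complex, was at 225 and 252 CPM, against 225 and 229 CPM in siNC embryos. The first did not overlap between groups and the second did, and neither difference passed the test.
Ruvbl1, a helicase-like subunit shared by these complexes, was at 38.8 and 19.3 CPM in siSPENH0335 embryos, against 28.2 and 37.4 CPM in siNC embryos. It differed more between the siSPENH0335 replicates than any other remodeler (log2 difference 1.00). Its partner Ruvbl2 was at 21.1 and 24.0 CPM, against 18.9 and 22.2 CPM in siNC embryos. Ino80e was at 9.53 and 11.7 CPM, against 14.9 and 12.2 CPM in siNC embryos, and 150 of its exon bases overlap Hirip3, an opposite-strand gene with 21074 to 28478 counts a library. Ino80b, Ino80c and Ino80d had log2 fold changes of 0.40, 0.32 and -0.02.

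Srcap, the ATPase that loads H2A.Z (chromosome 7, 127511983 to 127561219), had the smallest p among the negative fold changes. It was at 7.997 and 5.25 CPM in siSPENH0335 embryos, against 13.1 and 10.6 CPM in siNC embryos, a log2 fold change of -0.84 (SE 0.32, unadjusted p 0.043 in edgeR, adjusted p 0.9999). Its annotation is not its own: the protein-coding gene model Gm42715 (127519584 to 127567054) shares 9738 of the 15783 exon bases of Srcap on the same strand. Gm42715 was at 47.9 and 36.9 CPM in siSPENH0335 embryos, against 26.6 and 30.0 CPM in siNC embryos, a log2 fold change of 0.58 (SE 0.20, unadjusted p 0.029 in edgeR), opposite to Srcap.
Of the counts given to either model, Srcap took 14.3% and 12.5% in the siSPENH0335 libraries, against 32.9% and 26.1% in the siNC libraries. Summed, the models were at 55.9 and 42.1 CPM in siSPENH0335 embryos, against 39.7 and 40.6 CPM in siNC embryos, and the same fit gave the sum a log2 fold change of 0.29 (SE 0.19). The direction for Srcap thus turned when the models were summed, and the sources used here do not say how reads in shared exons were divided.

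**Figure D5:**
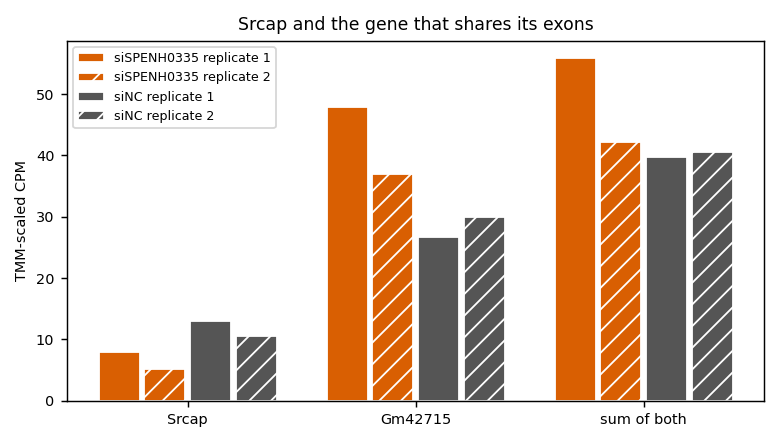
TMM-scaled CPM of Srcap, of the gene model Gm42715 that shares 9738 of its exon bases, and of their sum, in each library (orange, siSPENH0335; grey, siNC; hatched, replicate 2). Srcap is lower in both siSPENH0335 libraries, Gm42715 is higher in both, and the sum is at 55.9 and 42.1 CPM against 39.7 and 40.6 CPM.

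The remaining Snf2-type ATPases of the list were Hells, Smarcad1 and Smarcal1. Hells was at 207 and 276 CPM in siSPENH0335 embryos, against 207 and 231 CPM in siNC embryos (log2 fold change 0.14, SE 0.17). Smarcad1, which helps to restore silent chromatin behind the replication fork, was at 112 and 144 CPM, against 102 and 116 CPM in siNC embryos. Smarcal1, which anneals single-stranded DNA at stalled forks, was at 13.2 and 13.8 CPM, against 11.6 and 12.7 CPM in siNC embryos. Only in Smarcal1, of these 3, did the groups not overlap.

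Partners of these enzymes outside the rule, and other Snf2-type ATPases, were set beside them as 65 further genes, of which 64 were tested. None passed the edgeR test over all genes, 30 of the 64 had a fold change above 0 and the median was -0.03. The medians were -0.07 for 13 further SWI/SNF partners, 0.08 for 8 ISWI partners, -0.07 for 10 NuRD partners, -0.03 for 22 partners of INO80, SRCAP and TIP60, and -0.08 for 11 other ATPases. Both siSPENH0335 libraries lay above both siNC libraries in 12 of the 64 (18.8%, background 15.6%), and below both in 10 (15.6%, background 17.1%).
Atrx, which loads histone H3.3 at repeats, was the only one at an unadjusted p under 0.05 in edgeR (1.56% of the 64, background 3.85%), at 774 and 919 CPM in siSPENH0335 embryos, against 687 and 709 CPM in siNC embryos (log2 fold change 0.28, SE 0.11). Zranb3, a fork-remodeling ATPase, was at 20.2 and 20.3 CPM, against 20.9 and 26.3 CPM in siNC embryos. Ss18 and Ss18l1, alternative SWI/SNF subunits, had log2 fold changes of 0.24 and 0.20. Gatad2b, a NuRD subunit, was at 515 and 573 CPM in siSPENH0335 embryos, against 449 and 484 CPM in siNC embryos, and Mta1, also of NuRD, at 5.41 and 6.46 CPM, against 8.28 and 7.92 CPM in siNC embryos.
Rbbp4, a histone-binding subunit of NURF and NuRD, was at 42.7 and 39.2 CPM in siSPENH0335 embryos, against 30.9 and 33.3 CPM in siNC embryos (log2 fold change 0.35, SE 0.16). Rsf1, a partner of Smarca5, was at 22.4 and 18.9 CPM, against 23.8 and 23.4 CPM in siNC embryos. Mbtd1 and Epc2, of the TIP60 complex, had log2 fold changes of 0.18 and 0.19. In each of these 4 genes, which were named for their small p, the groups did not overlap.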

How the data were processed

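Poly(A) RNA of whole 2-cell embryos was sequenced from pre-amplified cDNA, per the labels' protocols, in 2 siSPENH0335 and 2 siNC libraries. The deposited table holds raw counts per Ensembl gene, not normalized by the authors judging from the values, which are whole numbers with unequal totals. Tools named in the processing notes of the submitters, with no roles, are HISAT2 2.1.0, CASAVA 1.8, Picard 2.18.2 and Trim Galore 0.6.5, and the build is mm10. With the counting tool, strand setting and duplicate handling not given in the sources used here, reads of overlapping genes and of copies cannot be told apart. Symbols and exon lengths came from GENCODE M21, which matched 53620 of 53715 rows.

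Genes kept by filterByExpr (minimum 10 counts) were scaled by TMM and tested with edgeR 4.0.16 in R 4.3.3 by the quasi-likelihood F-test, two-sided, with group as the only term and Benjamini-Hochberg adjustment over all genes (threshold 0.05). The SE is the fold change over the square root of F. DESeq2 1.42.0 and limma 3.58.1 were alternatives. The test was checked on simulated data. Remodelers, lists and tests were chosen with earlier results of these data known. Values in each library are given for ATPases, for the 5 genes of smallest p in each direction and for the 5 highest levels per kb, and each partner list names its 2 genes of smallest p. Alternative lengths, library totals and summed gene models were chosen after seeing the data.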

Additional observations from a re-analysis of the deposited data

How the results depend on the processing

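Few counts limit the precision for Smarca1, Smarcd3 and Ino80b. No remodeler gene was called under any of the alternatives run. Over all genes DESeq2 called 34, leaving out 1 library in turn called 0 to 3, and the other alternatives 0. The median log2 fold change of the remodelers stayed between 0.07 and 0.20, and 24 to 34 genes had a 95% interval within 2-fold, against 33 as reported. With the replicate number as a block, the count called was 0 over all genes, the median was 0.13 and 30 genes had such an interval. Same-numbered libraries did not deviate together (correlation of the replicate differences -0.02 over 25565 genes). The fit without the block also called 0 genes, so the block had no call to remove.

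The direction of 25 of the 43 genes held in every fit, 21 above and 4 below 0. Smarcd2 turned to 0.0043 with size factors (RLE) and with DESeq2, to 0.013 with limma-voom and to 0.0079 with the block. With library totals Chd9 turned to -0.041 and Actl6a to -0.0045, and summed with Gm42715 Srcap turned to 0.29. Leaving out 1 library gave log2 fold changes of -0.18 to 0.24 for Actl6a, -0.080 to 0.27 for Baz1b, -0.024 to 0.14 for Baz2a, -0.28 to 0.12 for Chd1, -0.29 to 0.28 for Chd5, -0.14 to 0.081 for Chd8, -0.082 to 0.088 for Chd9, -0.0075 to 0.15 for Ep400, -0.080 to 0.33 for Hells, -0.048 to 1.04 for Ino80b, -0.047 to 0.0094 for Ino80d, -0.76 to 0.25 for Ruvbl1, -0.37 to 0.12 for Smarca4, -0.16 to 0.31 for Smarcb1, -0.20 to 0.30 for Smarcc1, -0.19 to 0.20 for Smarcd2, -0.033 to 0.29 for Smarce1. Other genes held their direction but moved by over 1.5 times without 1 library, with ranges of 0.031 to 0.48 for Arid1a, 0.12 to 0.34 for Arid2, 0.043 to 0.19 for Baz1a, 0.11 to 0.29 for Bptf, 0.036 to 0.44 for Brd7, 0.38 to 0.79 for Brd9, 0.064 to 0.71 for Chd2, 0.38 to 0.96 for Chd3, 0.061 to 0.25 for Chd4, 0.081 to 0.21 for Chd6, 0.20 to 0.43 for Ino80c, -0.50 to -0.20 for Ino80e, 0.021 to 0.25 for Ruvbl2, -0.74 to -0.12 for Smarca1, 0.070 to 0.27 for Smarca2, 0.038 to 0.40 for Smarcad1, 0.080 to 0.22 for Smarcal1, -0.89 to -0.39 for Smarcc2, 0.19 to 0.47 for Smarcd1, -2.67 to -1.09 for Smarcd3. The cause was not tested. With the longest coding transcript as length, the mean ratio was 13.8 for Smarca2 over Smarca4, 3.97 for Arid1a over Arid1b and 17.0 for Chd1 over Chd2.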
